A study of Citrullus lanatus with 30 samples.

Results

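Citrulline and arginine metabolism in watermelon flesh was described through the genes whose annotation names argininosuccinate, ornithine carbamoyltransferase, acetylornithine, acetylglutamate, arginase or carbamoyl-phosphate synthase. These words matched 16 of the 22596 genes listed, and 15 of the 16 were among the 16503 genes tested. The match used descriptions and no measured value, but the words were chosen with earlier results of these data known. The libraries were made from total RNA of Citrullus lanatus fruit flesh. There were 10 groups of 3 libraries: wild type (WT) and a mutant named clnor, each sampled 10, 18, 26, 34 and then 42 days after pollination (DAP). The labels name the mutant clnor without saying how its allele was made or whether it is 1 line, and they do not say whether the libraries of a group came from separate fruits, so the p-values rest on a spread between libraries that may be only technical. Phytoene synthase (Cla97C01G008760), the first enzyme of the pigment pathway of flesh, was detected in all groups, at 26.1 to 304 TPM in WT and 14.0 to 96.8 TPM in clnor (to 53.4 TPM without clnor 18 DAP replicate 3). Of the 4 genes listed as flesh pigment markers it was the only one lower in clnor at 34 DAP, and the other 3 were higher there (limma, adjusted p below 0.05). Phytoene synthase 2 (Cla97C02G050140), among those 3, held 0 to 0.1 TPM in WT and 0.72 to 1.34 TPM in clnor at 34 DAP. It reached 1 TPM, the level needed for testing, only in clnor libraries, so its call follows in part from that choice. Among those 3 the phytoene desaturase (Cla97C10G198770), the next enzyme, held 8.14 ± 2.62 TPM in WT and 46.4 ± 15.9 TPM in clnor at 34 DAP.

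Citrulline was first isolated from watermelon, whose flesh stores it as a free amino acid. Plants build ornithine from glutamate through acetylated intermediates, and ornithine carbamoyltransferase joins it to carbamoyl phosphate to give citrulline. Argininosuccinate synthase then consumes citrulline together with aspartate, argininosuccinate lyase splits the product into arginine and fumarate, and arginase breaks arginine into ornithine and urea. The level of citrulline in a tissue therefore depends on steps that make it and steps that use it, and transcript levels measure neither the enzymes nor the amino acids.

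Levels are TPM, transcript abundance scaled to gene length and library total, and are given as mean ± SD of 3 libraries. Differences are on the scale of log2(TPM + 1) with their standard errors, a scale that understates changes of low genes. A gene was called when its limma p, adjusted by Benjamini and Hochberg over all 16503 genes, was below 0.05. TPM keeps no sequencing depth, so the depth of the libraries is unknown; 13404 to 15065 genes reached 1 TPM in a library. For 25 of the 30 libraries the closest group mean was that of the library's own group, and for 5 it was another. The third WT library at 18 DAP was closest to clnor of that age (r 0.969 against 0.945 to its own group), and the third clnor library at 18 DAP to WT (r 0.977 against 0.942). Whether these 2 libraries carry each other's label was not tested and is not settled by the labels, so each value at 18 DAP rests on labels in doubt. The others were clnor 10 DAP replicate 1 (r 0.972 against 0.957), clnor 10 DAP replicate 3 (r 0.969 against 0.938) and clnor 34 DAP replicate 2 (r 0.959 against 0.951); each r is taken across genes, which do not count as replicates. In bulk flesh, fewer cells of a type and less RNA per cell cannot be told apart.

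In young fruit no gene of the pathway was called between the genotypes, and in older fruit each of those called was higher in clnor. At 10 DAP 0 of the 15 tested members were called in limma (0 at an unadjusted p below 0.05), where 0.473% of all genes were called, and at 18 DAP 0 were called (0 unadjusted), where 2.35% were (1.38% higher). Without both replicates 3 at 18 DAP, an alternative chosen after seeing the data, 0 members were called at that age and 4 had an unadjusted p below 0.05, while the share of all genes called rose to 20.5% (11.3% higher and 9.28% lower). At 26 DAP 2 members were higher in clnor and 0 lower, where 15.5% of all genes were called, 9.66% higher and 5.8% lower. At 34 DAP 5 were higher and 0 lower, where 39.4% of all genes were called, 27.4% higher and 12.1% lower. At 42 DAP 6 were higher and 0 lower, where 32.6% were called, 18.8% higher and 13.8% lower. Averaged over the 5 ages 6 were higher and 0 lower, where 48.2% were called, 31.8% higher and 16.4% lower. The 5 members at 34 DAP were the N-acetylglutamate synthase-like gene, the small chain of carbamoyl-phosphate synthase, the more abundant argininosuccinate synthase and lyase, and arginase. At 42 DAP the 6 were the first 2 of these, acetylglutamate kinase, ornithine carbamoyltransferase, a minor synthase (Cla97C03G054790) and arginase. Averaged over ages the kinase dropped out and the major lyase (Cla97C08G154710) joined. The share of members called higher was close to that of all genes at 34 DAP and above it at 42 DAP, and 0 members were called lower at any of the 5 ages. The count at 26 DAP was 0 without clnor 26 DAP replicate 2 and 1 without any other library of that age, and the count at 34 DAP was 3 without WT 34 DAP replicate 2.

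The median difference of the 15 members was 0.28 at 34 DAP, beside 0.20 over all genes, and 0.48 at 42 DAP, beside 0.06. At 34 DAP the median of all genes moved to 0.12 with upper-quartile scaling and to -0.01 with quantile normalization, so differences there are read against that shift. Counting libraries instead of tests, all 3 clnor libraries lay above all 3 WT libraries for 0 members at 10 DAP, 1 at 18 DAP and 7 at each of 26, 34 and 42 DAP, beside 7.24, 9.18, 23.9, 36.2 and 27% of all genes. They lay below all 3 WT libraries for 0 members at 10, 18, 26 and 34 DAP and for 1 at 42 DAP, beside 5.84, 3.58, 12.8, 16 and 20.8% of all genes.

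**Figure D1:**
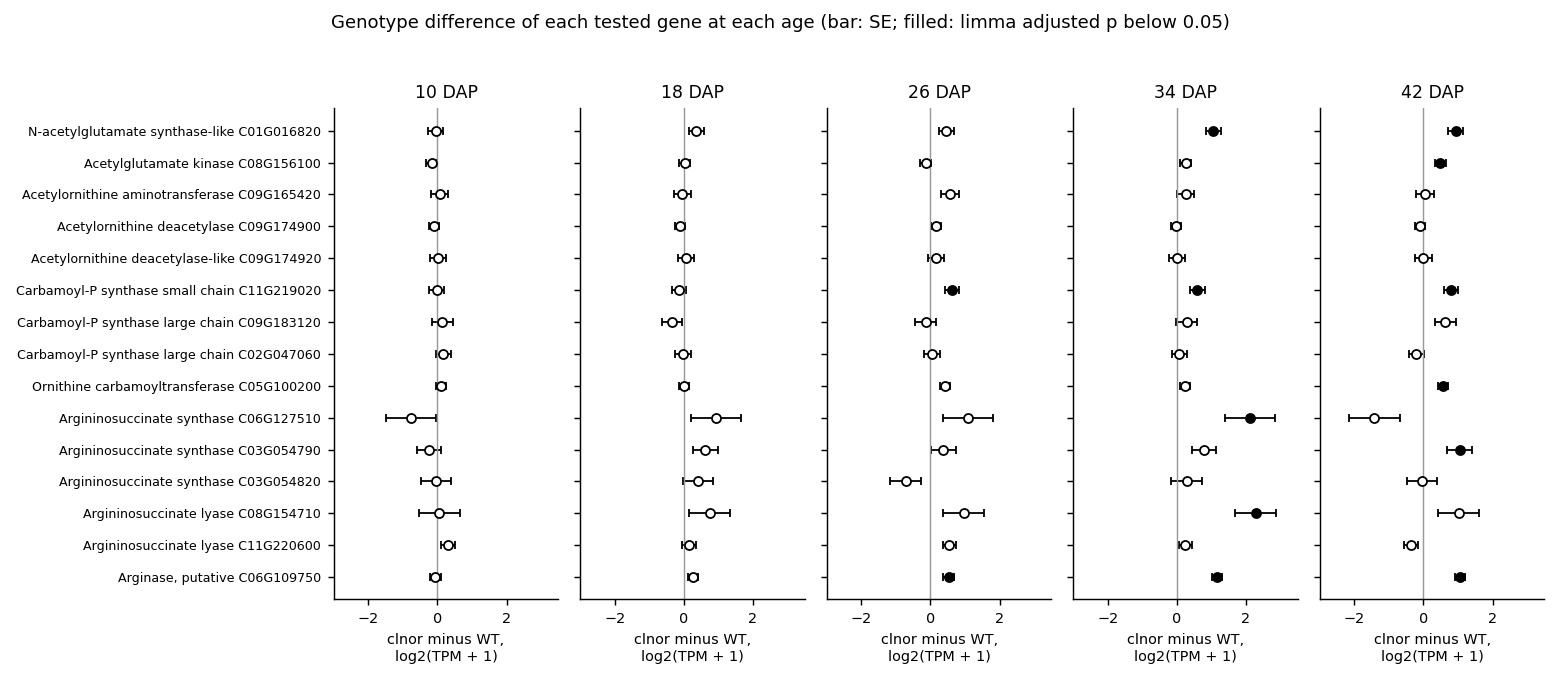
Difference between clnor and WT in log2(TPM + 1) (horizontal axis) for the 15 tested genes (one per line, gene identifiers shortened) at each age in DAP; points are limma estimates, bars their standard errors, and filled points passed an adjusted p below 0.05. Filled points appear from 26 DAP and all lie to the right of 0, and the longest bars belong to the major argininosuccinate synthase and lyase.

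Ornithine synthesis starts with the acetylation of glutamate, and the gene described as an N-acetylglutamate synthase-like acetyltransferase (Cla97C01G016820) was the member of this arm with the smallest p between genotypes. At 10 DAP WT libraries held 163, 207 and 193 TPM and clnor libraries 215, 245 and 112 TPM. At 34 DAP WT libraries held 83.2, 81.8 and 93.2 TPM and clnor libraries 139, 233 and 178 TPM. At 42 DAP the values were 99.3, 88.8 and 77.2 TPM in WT and 192, 153 and 165 TPM in clnor. The groups overlapped at 10 DAP, and at 18, 26, 34 and 42 DAP each clnor library lay above each WT library. At 18 DAP this rests on 94.6 TPM in clnor replicate 3, whose label is in doubt, beside 93.6 TPM in WT replicate 1. The difference was 1.05 ± 0.21 at 34 DAP (adjusted p 0.000467, 2.08-fold) and 0.94 ± 0.21 at 42 DAP (adjusted p 0.00173); at 18 and 26 DAP it was 0.36 ± 0.21 and 0.46 ± 0.21 and did not pass (adjusted p 0.382 and 0.163). In WT the transcript fell from 10 to 34 DAP, from 188 ± 22.7 to 86.0 ± 6.20 TPM (-1.11 ± 0.21, adjusted p 0.000182), whereas in clnor the 2 ages differed by -0.01 ± 0.21 (adjusted p 0.991). The test of the change of the genotype difference with age gave an adjusted p of 0.0417, which the loss of 1 library could raise past the threshold, once WT 10 DAP replicate 2 or 3, WT 18 DAP replicate 1, WT 26 DAP replicate 2, WT 34 DAP replicate 1, 2 or 3, WT 42 DAP replicate 2 or 3, clnor 26 DAP replicate 1, 2 or 3, clnor 34 DAP replicate 2 or 3 or clnor 42 DAP replicate 1 or 3 was left out (adjusted p 0.0505 to 0.0889).

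The next enzymes of the arm gave fewer calls. Acetylglutamate kinase (Cla97C08G156100), which phosphorylates acetylglutamate and in plants is regulated by arginine and the PII protein, ranged from 29.3 to 69.3 TPM over the 30 libraries. At 42 DAP WT libraries held 40.8, 44.0 and 38.8 TPM and clnor libraries 69.3, 53.0 and 52.9 TPM, without overlap. That difference passed (0.48 ± 0.15, adjusted p 0.0189), though not once WT 42 DAP replicate 3 or clnor 42 DAP replicate 1 was left out (adjusted p 0.0715 to 0.121), and the ages 10 to 34 DAP gave no call. Acetylornithine aminotransferase (Cla97C09G165420), which adds the second amino group, was highest at 18 DAP in both genotypes, with 139 ± 39.1 TPM in WT and 132 ± 16.7 TPM in clnor. From 10 to 34 DAP it rose in WT from 50.3 ± 12.9 to 90.9 ± 15.3 TPM (0.86 ± 0.26, adjusted p 0.0083) and in clnor from 55.9 ± 30.2 to 108 ± 14.9 TPM (1.05 ± 0.26, adjusted p 0.00469). The rise in WT was not called once WT 10 DAP replicate 1 was left out (adjusted p 0.0682). No genotype difference of this gene passed, and the averaged one was 0.18 ± 0.12 (adjusted p 0.211).

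Acetylornithine deacetylase, which can release ornithine, was listed as 3 genes with consecutive identifiers. Cla97C09G174900 held nearly all of the transcript, between 28.0 and 52.6 TPM in the 30 libraries, and its averaged difference between genotypes was -0.03 ± 0.06 (adjusted p 0.673). It changed with age in clnor (F test over the 5 ages, adjusted p 0.00684), with its highest mean, 48.1 ± 6.63 TPM, at 26 DAP. Cla97C09G174920 reached 1 TPM in 4 libraries, all at 10 DAP. It held 1.87, 0.24 and 1.45 TPM in WT and 1.79, 0.59 and 1.03 TPM in clnor at that age, and was listed at 0 in the 6 libraries at 34 DAP and the 6 at 42 DAP. It fell from 10 to 34 DAP in both genotypes (limma, adjusted p 0.00095 in WT and 0.00226 in clnor). The gene was tested only because of its 10 DAP libraries, so this fall follows in part from the filter and is no separate result. Cla97C09G174910 was the untested member; it reached at most 0.73 TPM and was listed at 0 in 21 libraries. How reads were split between these similar copies is not given in the sources used here, so the values of the minor copies are uncertain.

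**Figure D2:**
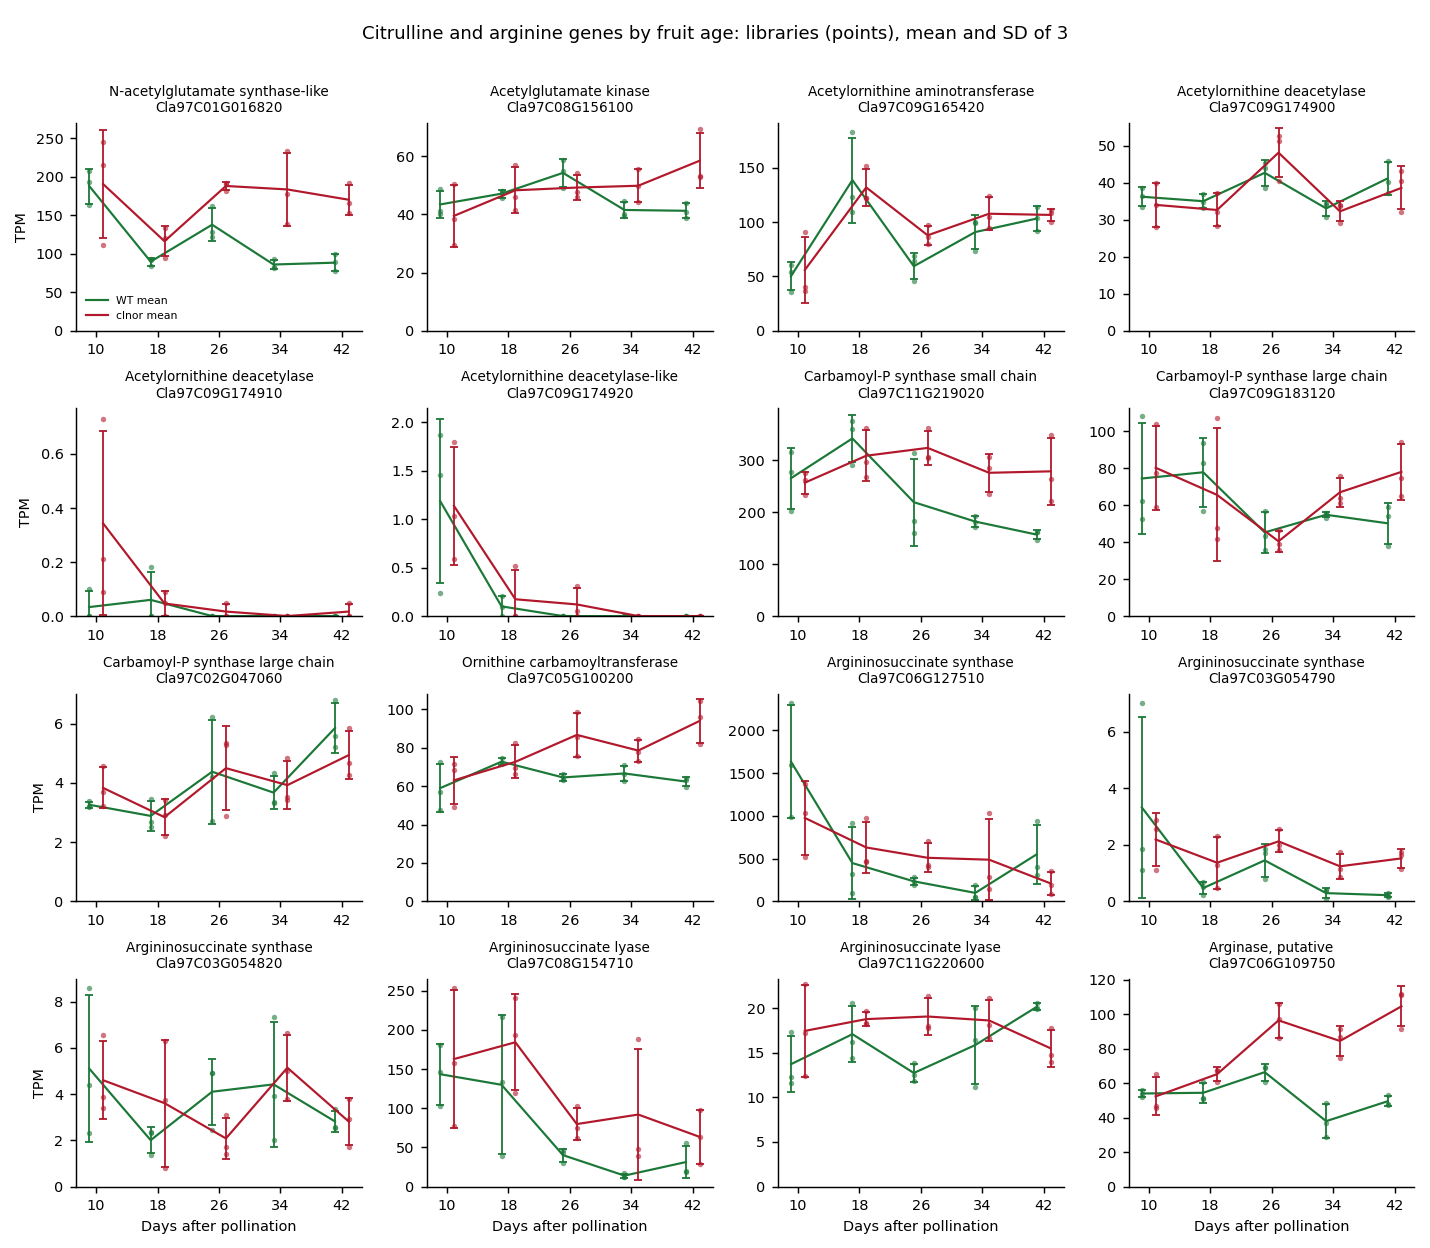
TPM (vertical axis, from 0, scale differs between panels) of the 16 genes against days after pollination in WT (green) and clnor (red), slightly offset; points are libraries, lines join means, bars are SD of 3 libraries and are cut off below 0. The libraries of the 2 genotypes do not overlap from 26 DAP on for arginase and from 18 DAP on for the N-acetylglutamate synthase-like gene. At 18 DAP the gap is narrow and rests on labels in doubt. The curves of acetylornithine aminotransferase and deacetylase (Cla97C09G174900) run close together.

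Carbamoyl phosphate, the other substrate of citrulline synthesis, is made by an enzyme of a small chain, which takes ammonia from glutamine, and a large chain, which forms the product. The same product also feeds pyrimidine synthesis. The small chain gene (Cla97C11G219020) was the more abundant, at 146 to 375 TPM. At 42 DAP WT libraries held 162, 146 and 161 TPM and clnor libraries 265, 348 and 222 TPM, and at 34 DAP 193, 171 and 181 TPM and 307, 235 and 285 TPM. Both ages showed no overlap, while at 26 DAP the highest WT library, replicate 3 with 314 TPM, lay among the clnor libraries of 306, 304 and 361 TPM. The gene was higher in clnor by 0.80 ± 0.21 at 42 DAP (adjusted p 0.00451), 0.59 ± 0.21 at 34 DAP (adjusted p 0.0265) and 0.62 ± 0.21 at 26 DAP (adjusted p 0.0443). The call at 34 DAP was lost once WT 34 DAP replicate 2 or 3 or clnor 34 DAP replicate 1 or 3 was left out (adjusted p 0.0604 to 0.0911), and that at 26 DAP once WT 26 DAP replicate 1 or 2 or clnor 26 DAP replicate 1, 2 or 3 was left out (adjusted p 0.072 to 0.255). In WT the gene fell from 265 ± 58.4 TPM at 10 DAP to 182 ± 10.9 TPM at 34 DAP (-0.52 ± 0.21, adjusted p 0.0421), a call lost once WT 10 DAP replicate 2 or 3 or WT 34 DAP replicate 1, 2 or 3 was left out (adjusted p 0.0603 to 0.187). In clnor the same ages differed by 0.10 ± 0.21 (adjusted p 0.781).

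Large chain genes gave no genotype call. Cla97C09G183120 ranged from 35.6 to 108 TPM. At 34 DAP its libraries held 55.8, 53.2 and 55.4 TPM in WT and 63.8, 75.9 and 61.2 TPM in clnor, and at 42 DAP 37.8, 58.9 and 53.9 TPM and 74.7, 64.9 and 94.3 TPM. The groups did not overlap at either age, but the differences, 0.28 ± 0.30 and 0.63 ± 0.30, did not pass (adjusted p 0.491 and 0.11). The second large chain gene (Cla97C02G047060) stayed between 2.20 and 6.79 TPM, and its averaged difference was 0.01 ± 0.10 (adjusted p 0.931).

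Ornithine carbamoyltransferase, the enzyme that makes citrulline, was represented by 1 gene (Cla97C05G100200) with a narrow range of 47.4 to 104 TPM. Its means at the 5 ages in turn were 59.0, 72.8, 64.6, 66.6 and 62.4 TPM in WT and 63.0, 72.7, 86.7, 78.6 and 94.0 TPM in clnor. At 42 DAP the WT libraries held 59.8, 63.0 and 64.5 TPM and the clnor libraries 104, 96.0 and 81.9 TPM. At 34 DAP the values were 66.1, 71.0 and 62.8 TPM in WT and 84.7, 73.4 and 77.6 TPM in clnor. The clnor libraries lay above WT libraries at these ages and also at 26 DAP, and the groups overlapped at 10 and 18 DAP. The gene was higher in clnor at 42 DAP by 0.58 ± 0.14 (adjusted p 0.00355, 1.49-fold) and averaged over ages by 0.26 ± 0.06 (adjusted p 0.00182). At 26 and 34 DAP the differences were 0.41 ± 0.14 (adjusted p 0.0557) and 0.23 ± 0.14 (adjusted p 0.211). It changed with age in clnor (adjusted p 0.0135), though not once clnor 10 DAP replicate 1 was left out (adjusted p 0.0597), and the same test in WT gave an adjusted p of 0.316; the test of the change of the genotype difference with age did not pass (adjusted p 0.149).

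Argininosuccinate synthase, which uses up citrulline, had the widest range of TPM among the members. Of its 3 genes Cla97C06G127510 held 87.1 to 99.8% of the synthase TPM of a library (median 99.0%). In WT its 3 libraries held 2314, 990.2 and 1598 TPM at 10 DAP, 322, 100.2 and 919 TPM at 18 DAP and 225, 195 and 281 TPM at 26 DAP. At 34 DAP they held 52.2, 51.6 and 191 TPM, and at 42 DAP 303, 943 and 403 TPM. The 34 DAP libraries were the lowest of WT apart from 18 DAP replicate 2, and each 42 DAP library lay above each of them. From 10 to 34 DAP the WT transcript fell by 4.25 on the log2 scale (standard error 0.73, adjusted p 5.2e-05), from 1634 ± 662 to 98.2 ± 80.3 TPM.

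In clnor the same gene was at 1373, 1037 and 516 TPM at 10 DAP, 467, 968 and 455 TPM at 18 DAP and 703, 421 and 403 TPM at 26 DAP. At 34 DAP the libraries held 145, 1028 and 287 TPM and at 42 DAP 349, 90.4 and 189 TPM. Replicate 2 at 34 DAP, a library nearest to another group, was several times above the others of its group. From 10 to 34 DAP the change in clnor was -1.37 ± 0.73 and did not pass (adjusted p 0.183); without clnor 34 DAP replicate 2 it was -2.14 and passed (adjusted p 0.0461). The genotypes differed at 34 DAP by 2.11 ± 0.73 (adjusted p 0.0245), although the lowest clnor library lay below WT replicate 3. That call was lost once WT 34 DAP replicate 1 or 2 or clnor 34 DAP replicate 2 was left out (adjusted p 0.0962 to 0.181), with 1.33 as the difference without clnor replicate 2. At 42 DAP the means stood the other way round, 549 ± 345 TPM in WT and 209 ± 131 TPM in clnor, with overlapping libraries and a difference of -1.42 ± 0.73 that did not pass (adjusted p 0.143). The test of the change of the genotype difference with age gave an adjusted p of 0.0579. It ranged from 0.0212 to 0.0451 without WT 18 DAP replicates 2 or 3, WT 34 DAP replicate 3, clnor 34 DAP replicate 1, clnor 42 DAP replicate 1 or the 6 libraries at 18 DAP.

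**Figure D3:**
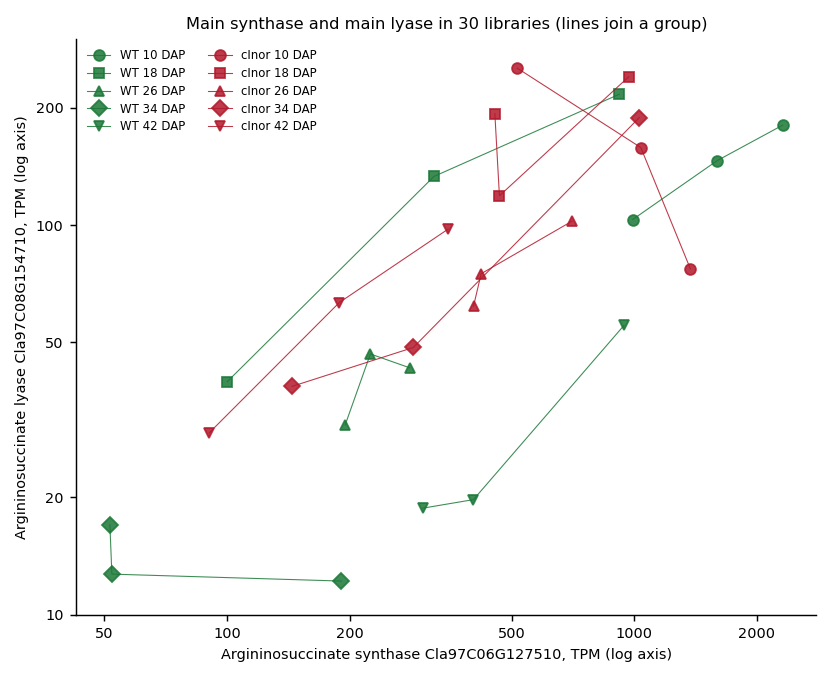
TPM of the major argininosuccinate lyase (Cla97C08G154710, vertical log axis) against that of the major synthase (Cla97C06G127510, horizontal log axis) in 30 libraries; colour marks genotype, symbol marks age, and lines join the 3 libraries of a group in order of synthase level. In 6 of the 10 groups the 3 libraries have the same order of synthase and of lyase, and in WT at 34 DAP and clnor at 10 DAP the order is reversed.

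The minor synthase genes stayed below 9 TPM. Cla97C03G054790 was higher in clnor averaged over ages (0.52 ± 0.16, adjusted p 0.01), a difference of 0.22 that did not pass after quantile normalization (adjusted p 0.25). At 42 DAP WT libraries held 0.3, 0.2 and 0.15 TPM and clnor libraries 1.15, 1.76 and 1.65 TPM, without overlap. That difference of 1.04 ± 0.36 passed (adjusted p 0.0273), but not once WT 42 DAP replicate 2 or 3 or clnor 42 DAP replicate 2 or 3 was left out (adjusted p 0.0619 to 0.077). In WT from 10 to 34 DAP the gene fell by 1.51 on the log2 scale (adjusted p 0.00131). Cla97C03G054820, at 0.80 to 8.60 TPM, gave no call by genotype or by age. The 2 have close identifiers, and reads shared between similar copies cannot be told apart here.

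Argininosuccinate lyase, which completes arginine, had 2 genes, and the major one (Cla97C08G154710) held 38.8 to 93.8% of lyase TPM (median 81.3%). Its WT libraries held 181, 103 and 147 TPM at 10 DAP and 12.7, 17.0 and 12.2 TPM at 34 DAP. Its clnor libraries held 77.2, 158 and 253 TPM at 10 DAP and 38.6, 189 and 48.5 TPM at 34 DAP. WT at 34 DAP was lower than each clnor library of that age, and replicate 2 was again the highest clnor library. The difference at 34 DAP was 2.28 ± 0.59 (adjusted p 0.00398), 4.85-fold, and remained called in each alternative tried, those without 1 library included. Averaged over the ages the gene was 1.01 ± 0.27 higher in clnor (adjusted p 0.00314). At 26 DAP all clnor libraries also lay above WT, 102, 75.1 and 61.9 TPM against 46.7, 30.7 and 43.0 TPM, but the difference of 0.97 ± 0.59 did not pass (adjusted p 0.308). From 10 to 34 DAP it fell by 3.25 on the log2 scale in WT (adjusted p 0.000107), whereas the change in clnor, -1.03 ± 0.59, did not pass (adjusted p 0.224); without clnor 34 DAP replicate 2 it was -1.73 and passed (adjusted p 0.0428). The test of the change of the genotype difference with age did not pass (adjusted p 0.292), so the fall is not shown to differ between genotypes.

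The second lyase (Cla97C11G220600) was steadier, at 11.2 to 22.7 TPM. It held 15.9 ± 4.42 TPM in WT at 34 DAP, so that the major gene, at 14.0 ± 2.65 TPM, made up 38.8 to 52.1% of lyase TPM there, against 64.6 to 91.3% in clnor at that age. At 42 DAP its libraries held 20.6, 19.98 and 19.9 TPM in WT and 17.8, 14.7 and 13.9 TPM in clnor, the only case among the 15 members and 5 ages in which all clnor libraries lay below WT. That difference of -0.37 ± 0.19 did not pass (adjusted p 0.159).

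Major synthase and lyase genes often ranked the libraries of a group alike. The synthase and the lyase had the same highest library in 7 of the 10 groups and the same lowest in 7. In WT at 34 DAP and in clnor at 10 DAP their order was fully reversed. Over all genes tested 3.65% shared the highest library of the synthase in at least 7 groups. Markers of phloem, the sugar-conducting tissue that runs through the flesh, were compared in the same way. The summed TPM of 39 genes described as phloem proteins or the like had its highest library where the synthase did in 9 of 10 groups and its lowest in 8. Among single genes 0.139% shared the synthase's highest library in at least 9 groups, and no such share was computed for sums of genes. The phloem sum was 280.0 to 393 TPM in WT and 435 to 1398 TPM in clnor at 34 DAP, with the 1398 TPM in clnor replicate 2, and 2 of the 39 genes were at 0 in all 30 libraries. At 34 DAP, at 42 DAP and averaged over ages 10 of the 29 phloem genes tested were higher in clnor and 0 lower, where 27.4%, 18.8% and 31.8% of all genes were higher and 12.1%, 13.8% and 16.4% lower. The part of phloem content in the levels of the synthase and lyase was not tested.

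**Figure D4:**
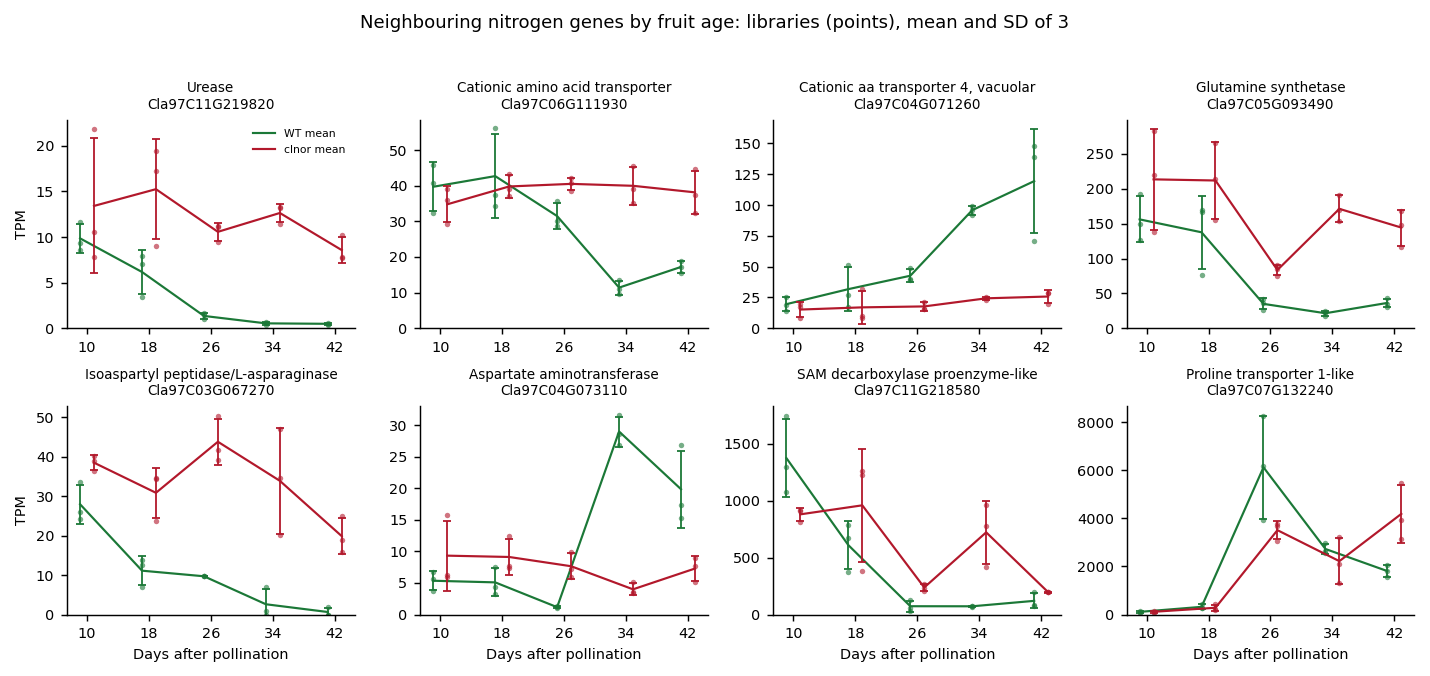
TPM (vertical axis, from 0, scale differs between panels) of 8 genes around the pathway against days after pollination in WT (green) and clnor (red), slightly offset; points are libraries, lines join means, and bars are SD of 3 libraries, cut off below 0. The urease, glutamine synthetase and asparaginase genes shown are low in WT and not in clnor at 34 DAP, and the vacuolar transporter and aspartate aminotransferase genes shown are high in WT and not in clnor. Each panel is a single gene named for its small p, and other genes of the same description can differ.

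The step that uses citrulline and the step that makes it were also set against each other. The TPM of all synthase genes divided by that of ornithine carbamoyltransferase ranged from 0.788 to 49.1 over the libraries (median 5.02). In WT it was 13.8 to 49.1 at 10 DAP, 0.788 to 3.08 at 34 DAP and 5.11 to 15.0 at 42 DAP. In clnor it was 7.33 to 28.0 at 10 DAP, 1.80 to 14.1 at 34 DAP and 0.999 to 3.39 at 42 DAP. At 18 and 26 DAP it was 1.43 to 12.7 and 3.19 to 4.45 in WT, and 5.52 to 14.7 and 4.12 to 9.37 in clnor. The genotypes overlapped at 10, 18, 26 and 34 DAP and not at 42 DAP, where all 3 WT libraries had the higher ratio. How often other pairs of genes separate in this way was not computed. These ratios are of transcripts and are given without a test.

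Arginase (Cla97C06G109750), the enzyme that returns arginine to ornithine and urea, was higher in clnor in fruit of 26 DAP and older. At 26 DAP WT libraries held 69.4, 69.0 and 60.6 TPM and clnor libraries 106, 97.1 and 86.0 TPM. At 34 DAP they held 48.3, 36.8 and 28.6 TPM and 91.5, 86.9 and 74.7 TPM, and at 42 DAP 48.0, 52.8 and 47.4 TPM and 111, 111 and 91.1 TPM. The groups did not overlap at these 3 ages and overlapped at 10 and 18 DAP, where the means were 53.9 ± 1.97 and 54.4 ± 5.65 TPM in WT and 52.3 ± 11.04 and 65.2 ± 4.13 TPM in clnor. Arginase was higher in clnor by 1.16 ± 0.15 at 34 DAP (adjusted p 3.89e-06, 2.23-fold) and by 1.06 ± 0.15 at 42 DAP (adjusted p 1.38e-05). At 26 DAP the difference was 0.53 ± 0.15 (adjusted p 0.0207), lost once WT 26 DAP replicate 3 or clnor 26 DAP replicate 1 or 2 was left out (adjusted p 0.0561 to 0.0972). From 10 to 34 DAP it fell in WT (-0.53 ± 0.15, adjusted p 0.00669) and rose in clnor (0.70 ± 0.15, adjusted p 0.00194; 0.0798 with these 2 groups fitted alone). The fall in WT was -0.35 and not called once WT 34 DAP replicate 3 was left out (adjusted p 0.0713). The change of the genotype difference with age passed (adjusted p 0.000748) and was called in all 37 alternatives, at 0.000197 to 0.00413.

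With age alone 10 of the 15 members changed in WT (F test over 5 ages; 76.1% of all genes changed) and 8 in clnor (56.7%). Some of these calls had an adjusted p near the threshold. In WT they were the second lyase (Cla97C11G220600, 0.0389), not called once WT 10 DAP replicate 1 or 3, WT 26 DAP replicate 1 or 2 or WT 42 DAP replicate 1, 2 or 3 was left out (adjusted p 0.0655 to 0.0913), and a large chain (Cla97C02G047060, 0.0196), not called once WT 42 DAP replicate 3 was left out (adjusted p 0.0946). In clnor they were acetylglutamate kinase (Cla97C08G156100, 0.0397), not called once clnor 10 DAP replicate 1 or 2, clnor 26 DAP replicate 1 or clnor 42 DAP replicate 1 was left out (adjusted p 0.0513 to 0.202), and Cla97C01G016820 (0.0378), not called once clnor 18 DAP replicate 1 or 3 or clnor 26 DAP replicate 1, 2 or 3 was left out (adjusted p 0.0522 to 0.242). Another in clnor was the large chain Cla97C09G183120 (0.0497), not called once clnor 10 DAP replicate 1 or 2, clnor 18 DAP replicate 2, clnor 26 DAP replicate 1, 2 or 3, clnor 34 DAP replicate 1, 2 or 3 or clnor 42 DAP replicate 1 or 3 was left out (adjusted p 0.0529 to 0.173). From 10 to 34 DAP 1 rose and 7 fell in WT, beside 19.1% and 29.4% of all genes (48.5% in all). Acetylornithine aminotransferase rose. The genes that fell were Cla97C01G016820, Cla97C11G219020, the major and 1 minor synthase, the major lyase, arginase and the deacetylase copy Cla97C09G174920. In clnor 2 rose, the aminotransferase and arginase, and 1 fell, Cla97C09G174920, beside 13.2% and 11% of all genes (24.2% in all). Cla97C09G174920 passed the filter only through libraries at 10 DAP, so its calls with age in both genotypes follow in part from the filter. The members' median in WT was -0.36, beside -0.13 over all genes, and the latter moved to 0.08 with quantile normalization. These contrasts share the WT 34 DAP libraries with the genotype contrast at that age, and the 2 are not independent. The difference between genotypes changed with age for 3 members (23.1% of all genes), namely Cla97C01G016820, Cla97C11G219020 and arginase; only arginase remained without WT 10 DAP replicates 2 or 3, WT 18 DAP replicate 1, WT 26 DAP replicate 2, WT 34 DAP replicates 1 or 2, WT 42 DAP replicates 2 or 3, clnor 26 DAP replicates 1, 2 or 3, or clnor 34 DAP replicate 3. In clnor the count changed with age was 5 without clnor 26 DAP replicate 1, and from 10 to 34 DAP 5 were called without clnor 34 DAP replicate 2.

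Genes around the pathway were described by 5 further lists. Of 14 tested genes for other steps and transport of ornithine and arginine (17 matched) 5 were higher and 5 lower in clnor averaged over ages. On that contrast 31.8% of all genes were higher and 16.4% lower, the shares against which the counts of all 5 lists are to be read. At 18 DAP this list gave 1 call, the polyamine list 0 and the glutamine, glutamate and aspartate list 1, where 2.35% of all genes were called. Without both replicates 3 of that age they gave 6 of 14, 7 of 19 and 8 of 30 tested genes, where 20.5% of all genes were called. Urease (Cla97C11G219820), which breaks down the urea that arginase releases, had the smallest p of the list. At 34 DAP its WT libraries held 0.69, 0.37 and 0.55 TPM and its clnor libraries 13.2, 13.2 and 11.5 TPM, without overlap. It was higher in clnor by 3.15 ± 0.29 at 34 DAP (adjusted p 4.57e-08) and by 1.92 ± 0.13 averaged over ages (adjusted p 1.29e-10). In WT it fell from 9.85 ± 1.61 TPM at 10 DAP to 0.537 ± 0.16 TPM at 34 DAP, and in clnor it held 13.4 ± 7.40 and 12.6 ± 1.02 TPM (0.04 ± 0.29, adjusted p 0.952). Of 3 urease accessory genes, which help load nickel into the enzyme, F (Cla97C02G040770) was higher by 0.81 and G (Cla97C03G058270) and D (Cla97C01G025790) lower, at -0.40 and -0.26; these were named after their values were seen. A cationic amino acid transporter (Cla97C06G111930), of a family that carries arginine and its relatives across membranes, held 9.72, 13.5 and 10.96 TPM in WT and 45.6, 39.2 and 35.1 TPM in clnor at 34 DAP (1.73 ± 0.17, adjusted p 1.19e-07). A vacuolar member of that family (Cla97C04G071260) stood the other way, at 96.3, 92.0 and 99.2 TPM in WT and 25.2, 23.1 and 24.6 TPM in clnor (-1.94 ± 0.40, adjusted p 0.00049). The PII homolog (Cla97C09G167230), which in plants binds acetylglutamate kinase, was lower, at -0.69 on the averaged contrast, and the ArgJ gene (Cla97C10G204170), whose product recycles the acetyl group of ornithine synthesis, higher by 0.25; both were named after their values were seen.

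Supply of glutamine, glutamate and aspartate was the longest of the 5 pathway lists, with 11 of 30 tested genes (32 matched) higher in clnor and 3 lower averaged over ages, where 31.8% and 16.4% of all genes were. A glutamine synthetase (Cla97C05G093490), which fixes ammonia, held 21.9, 24.9 and 17.7 TPM in WT and 153, 191 and 169 TPM in clnor at 34 DAP, with no overlap. Its difference there was 2.94 ± 0.28 (adjusted p 6.36e-08). Of the other tested glutamine synthetases only Cla97C05G108800 was called averaged over ages, at 0.55. An asparaginase (Cla97C03G067270), which releases ammonia from asparagine, held 1.92, 0 and 0 TPM in WT and 18.9, 24.9 and 15.8 TPM in clnor at 42 DAP, and the averaged difference was 2.31 ± 0.22 (adjusted p 2.01e-08). Of its other copies Cla97C05G101950 was also called higher, by 1.27, and Cla97C05G082140 was not called, at 0.01. An asparagine synthetase family gene (Cla97C01G018200) was higher by 0.81 ± 0.09 averaged over ages (limma, adjusted p 2.72e-07). Of the other tested asparagine synthetase genes Cla97C08G152640 was called lower, at -0.36. Cla97C02G045450, Cla97C08G152630 and Cla97C05G105640 were not called, at 0.59, -0.22 and 0.02. An aspartate aminotransferase (Cla97C04G073110), of the family that makes aspartate, the second substrate of argininosuccinate synthase, changed sides with age. It was higher in clnor at 26 DAP, 7.20, 5.87 and 9.88 against 1.24, 0.96 and 1.30 TPM (1.97 ± 0.31, adjusted p 0.000155). At 34 DAP it was lower, 5.08, 3.35 and 3.55 against 31.5, 28.6 and 26.8 TPM (-2.60 ± 0.31, adjusted p 1.11e-06). The groups did not overlap at either age. Averaged over ages this gene was not called, at -0.12. Of the other tested aspartate aminotransferases Cla97C07G131010 was called lower, at -0.41, and Cla97C07G136260 and Cla97C08G157000 higher, by 0.23 and 0.21. Cla97C09G164550 and Cla97C11G220050 were not called, at 0.03 and 0.007.

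Of 19 tested polyamine genes (22 matched), for amines made from ornithine and arginine, 4 were higher and 5 lower averaged over ages. Neighbouring identifiers for S-adenosylmethionine decarboxylase (Cla97C11G218580 and Cla97C11G218590), which supplies the aminopropyl groups, were higher in clnor at 34 DAP by 3.22 ± 0.44 and 2.88 ± 0.51 (adjusted p 5.95e-06 and 0.000126). The first held 70.2, 71.7 and 75.2 TPM in WT and 421, 965 and 778 TPM in clnor at that age. Reads shared between these similar copies cannot be told apart here. The other tested genes of that description, Cla97C05G086940, Cla97C05G093830 and Cla97C06G115150, were not called averaged over ages, at 0.14, -0.18 and 0.08. A spermidine synthase (Cla97C11G207900) was lower in clnor averaged over ages, with a difference of -1.09 ± 0.15 (adjusted p 4.29e-06), at means of 3.65 ± 0.799 TPM in WT and 0.813 ± 0.24 TPM in clnor at 34 DAP. Other spermidine synthases went both ways. Cla97C05G086440 and Cla97C05G107370 were called lower, at -1.06 and -0.34, and Cla97C06G126520 and Cla97C08G152650 higher, by 0.72 and 1.13. These were named after their values were seen. All 3 ornithine decarboxylase genes matched were too low to test.

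Proline genes, which share glutamate and ornithine with the pathway, gave 3 higher and 0 lower of 7 tested in the averaged contrast, and 1 to 3 over the alternatives. A proline transporter-like gene (Cla97C07G132240) rose from 111 ± 35.6 to 2729 ± 215 TPM in WT and from 114 ± 36.4 to 2222 ± 971 TPM in clnor (adjusted p 1.48e-09 and 3.97e-08). At 42 DAP it was higher in clnor by 1.18 ± 0.35 (adjusted p 0.0108), though not once clnor 42 DAP replicate 2 was left out (adjusted p 0.0584). Proline dehydrogenase (Cla97C11G212090), which degrades proline, was higher by 0.43 ± 0.11 averaged over ages (adjusted p 0.00247), at no more than 2.27 TPM, but by 0.16 after quantile normalization (adjusted p 0.231). A pyrroline-5-carboxylate reductase (Cla97C07G131190) and the synthase that precedes it (Cla97C10G204670) were higher by 0.26 ± 0.10 and 0.53 ± 0.21 (adjusted p 0.0332 and 0.0388). The first call was lost once WT 10 DAP replicate 1 or 3, WT 18 DAP replicate 3, WT 26 DAP replicate 1 or 2, WT 42 DAP replicate 2, clnor 10 DAP replicate 3, clnor 18 DAP replicate 2, clnor 34 DAP replicate 1 or 3 or clnor 42 DAP replicate 2 was left out (adjusted p 0.0512 to 0.0595) and the second once WT 10 DAP replicate 1 or 3, WT 18 DAP replicate 2, WT 26 DAP replicate 2, WT 34 DAP replicate 1 or 2, WT 42 DAP replicate 3, clnor 10 DAP replicate 2 or 3, clnor 18 DAP replicate 3, clnor 26 DAP replicate 2, clnor 34 DAP replicate 1 or 3 or clnor 42 DAP replicate 1 or 2 was left out (adjusted p 0.0504 to 0.0723). A second reductase (Cla97C04G071030) differed by -0.15 ± 0.09 (adjusted p 0.193).

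Pyrimidine synthesis, the competing use of carbamoyl phosphate, gave 1 higher and 1 lower of 6 tested, both aspartate carbamoyltransferases, the enzymes that use carbamoyl phosphate there. Cla97C04G070010 was higher by 0.37 ± 0.12 (adjusted p 0.0145; 0.07 and adjusted p 0.683 after quantile normalization). Cla97C10G189460 was lower, with a difference of -0.33 ± 0.11 (adjusted p 0.0174). At 34 DAP the first held 1.15 ± 0.751 TPM in WT and 3.13 ± 0.995 TPM in clnor, and the second 52.0 ± 6.34 and 36.7 ± 9.84 TPM. Another tested aspartate carbamoyltransferase, Cla97C04G070000, was not called averaged over ages, at 0.10 (limma, adjusted p 0.829). Dihydroorotate dehydrogenase (Cla97C01G008440), a later step, differed by 0.19 ± 0.09 (adjusted p 0.0769).

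Markers of other tissues were summed in the same libraries. At 34 DAP 27 seed genes summed to 748 to 1812 TPM in WT and 133 to 153 TPM in clnor (5 at 0 in all libraries), and 37 genes of green tissue to 2962 to 4647 and 1348 to 3506 TPM (1 at 0 in all libraries). Genes of epidermis and cuticle, 22 in number (2 at 0), summed to 94.2 to 217 TPM in WT and 168 to 216 TPM in clnor at that age, and to 113 to 126 and 321 to 430 TPM at 42 DAP. Gene by gene at 34 DAP, 1 of 16 tested seed genes was called higher in clnor and 1 lower, so the seed sum does not stand for most of its genes. For green tissue 4 of 31 were higher and 6 lower, and for epidermis and cuticle 4 of 11 higher and 2 lower. At that age 27.4% of all genes were higher and 12.1% lower. The part of these tissues in the levels of the pathway genes was not tested.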

How the data were processed

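TPM per gene and library was deposited by the authors for 22596 genes in 30 flesh libraries, 10 groups of 3. Per the labels, RNA was taken with Trizol and an RNeasy column with DNase I, and libraries were made with a TruSeq kit. The submitters' processing notes name Cufflinks, HISAT2, StringTie and TopHat2; for version, build, strand setting and depth, nothing is given in the sources used here. TPM sums were 970727 to 985840 per library, 5099 to 6433 genes were listed at 0, and at most 5.01% of values were identical in any of 435 library pairs.

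Values were tested as log2(TPM + 1) for 16503 genes, those that reached 1 TPM in 3 or more libraries. A linear model of 10 groups was fitted with limma 3.58.1 (eBayes, trend and robust, 20 residual degrees of freedom) in R 4.3.3, two-sided, with Benjamini and Hochberg adjustment over all genes within each contrast, and was tested on simulated data. The contrasts compared clnor with WT age by age and averaged, the change of that difference with age, age within genotype, and 34 against 10 DAP. Alternatives were a pseudocount of 0.1, no filter and a filter of 5 TPM, upper-quartile scaling, quantile normalization, the replicate number as a block, the 2 groups alone and leaving out each library.

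The 16 members and the lists were chosen with earlier results of these data known. Lists are search words in gene descriptions, and accidental matches were removed after the descriptions were read. Every member is accounted for; of each neighbouring list the 3 genes with the smallest averaged p and the 2 with the smallest p for the change with age are named (18 genes). Figures were drawn with matplotlib.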

Additional observations from a re-analysis of the deposited data

Results flagged for a closer look

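By limma's F test over the later ages against 10 DAP, the genotype difference changed with fruit age for 3 of 15 tested members. Of all genes 23.1% were called in this test. It was also called for 8 of the named neighbouring genes. Of each neighbouring list 2 genes were named for the smallest p in this same test, so that count follows in part from the choice. For arginase (Cla97C06G109750) the adjusted p was 0.000748, with a difference of -0.06 ± 0.15 at 10 DAP and 1.16 ± 0.15 at 34 DAP. For the N-acetylglutamate synthase-like gene (Cla97C01G016820) it was 0.0417, called in 19 of 37 alternatives, with -0.05 ± 0.21 at 10 DAP and 1.05 ± 0.21 at 34 DAP. For the small chain of carbamoyl-phosphate synthase (Cla97C11G219020) it was 0.0467, called in 10 of 37 alternatives (0.00534 to 0.141), with -0.15 ± 0.21 at 18 DAP and 0.80 ± 0.21 at 42 DAP. This call was lost without the 6 libraries at 18 DAP, the age with labels in doubt (adjusted p 0.141). That call was lost once WT 10 DAP replicate 2 or 3, WT 18 DAP replicate 1 or 2, WT 26 DAP replicate 1 or 2, WT 34 DAP replicate 1, 2 or 3, WT 42 DAP replicate 1, 2 or 3, clnor 10 DAP replicate 1 or 2, clnor 18 DAP replicate 1 or 2, clnor 26 DAP replicate 1, 2 or 3, clnor 34 DAP replicate 1 or 3 or clnor 42 DAP replicate 1 or 2 was left out (adjusted p 0.0501 to 0.0905).

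Among the neighbours, aspartate aminotransferase (Cla97C04G073110) had the smallest adjusted p, 1.56e-06, and its difference was positive at 26 DAP (1.97) and negative at 34 DAP (-2.60). The cationic amino acid transporter (Cla97C06G111930) had 1.95e-05, urease (Cla97C11G219820) 0.000139 and glutamine synthetase (Cla97C05G093490) 0.00034. The S-adenosylmethionine decarboxylases had 0.00102 (Cla97C11G218580) and 0.0105 (Cla97C11G218590), and asparaginase (Cla97C03G067270) had 0.0025. The proline transporter-like gene (Cla97C07G132240) had 0.0389, with -0.74 ± 0.35 at 26 DAP and 1.18 ± 0.35 at 42 DAP, and was not called once WT 10 DAP replicate 2, WT 26 DAP replicate 1 or 2, WT 34 DAP replicate 1, 2 or 3, WT 42 DAP replicate 1, 2 or 3, clnor 26 DAP replicate 1, 2 or 3, clnor 34 DAP replicate 3 or clnor 42 DAP replicate 1 or 2 was left out (adjusted p 0.0503 to 0.112). What lies behind these differences was not tested.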

How the results depend on the processing

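Of 4225 single-gene values under alternatives 4031 stayed on their side of the threshold, 154 no longer passed and 40 newly passed. Of the 1796 that passed as reported or under the alternative 0 changed sign, and of the 2429 that passed in neither 157 did. The number of members called at 26 DAP, 2 as reported, was 1 without a filter on low values, 4 with the 2 groups fitted alone and 0 to 1 without single libraries. At 34 DAP it was 3 to 4 without single libraries (5 as reported), at 42 DAP 4 to 6 (6), averaged over ages 6 to 7 (6), for the change of the difference with age 1 to 4 (3), for age in WT 8 to 10 (10), for age in clnor 5 to 9 (8), for WT 34 against 10 DAP 6 to 7 (8) and for clnor 34 against 10 DAP 3 to 5 (3). With the 2 groups fitted alone the last was 0. The causes of these shifts were not tested beyond the smaller number of samples. The proline list gave 1 to 3 calls averaged over ages (3 as reported) and the pyrimidine list 1 to 3 (2). Without the 6 libraries at 18 DAP 6 members were called averaged over ages and 3 for the change with age. Those 3 were not the same genes as reported. In limma's F test the small chain of carbamoyl-phosphate synthase was lost (adjusted p 0.141) and the major argininosuccinate synthase gained (adjusted p 0.0212). Without both replicates 3 of 18 DAP 0 were called at that age. These alternatives were chosen after seeing the data.

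Deviations from the group means were compared between libraries of the same number (15 pairs, r -0.41 to 0.25, median -0.04, 4 pairs above 0.1). At 26 and 34 DAP each r was positive, at 0.02 to 0.25. At 18 DAP, where labels are in doubt, r was -0.41 to -0.04. Whether the numbers pair the samples is therefore not settled, and the samples were treated as unpaired. With the replicate number as a block 1 member was called at 26 DAP and 1 for the change of the difference with age. Depth is unknown, so genes below 1 TPM carry no stated precision.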

Other observations

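Of the 16502 other genes tested, 2 ranked the 3 libraries of a group in the same order as the major argininosuccinate synthase in 9 of 10 groups, and 0 in all 10 (median over genes 2). They were an alanine:glyoxylate aminotransferase (Cla97C03G063130) and a short-chain dehydrogenase TIC 32-like gene (Cla97C07G135250), named after their values were seen. At 34 DAP in clnor the aminotransferase held 14.5, 53.2 and 25.3 TPM and the dehydrogenase 99.9, 155 and 113 TPM, where the synthase held 145, 1028 and 287 TPM. The major lyase had the same order as the synthase in 6 groups, as did 1.33% of genes in at least 6. This is a description over libraries that share whatever sets their order.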
